A study of Homo sapiens with 6 samples.

Results

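The ZNF genes of 19p12 were taken here as all protein-coding genes of the GENCODE 29 annotation (hg38) whose symbol starts with ZNF and whose start lies in a window of 5 Mb on chromosome 19, in which the first starts at base 19668796 and the last at base 24033405. The rule found 37 genes, and all 37 were in the deposited table of 58381 gene IDs. They were compared with the 212 protein-coding ZNF genes elsewhere on chromosome 19. The nearest of those lie well away, so the exact limits of the window do not decide which genes are members. ZNF333 starts at 14.7 Mb, against 19.7 Mb for ZNF101, the first gene inside, and had 81.3, 75.1 and 59.9 normalized counts in replicates 1, 2 and 3 of the CD24high group and 77.6, 102 and 72.5 in those of the CD24low group. ZNF536 starts at 30.2 Mb, against 24.0 Mb for ZNF254, the last gene inside, and had no read. RNA came from MCF10AT1, a human breast epithelial line descended from MCF10A cells that carry activated HRAS, so both groups share that oncogene and the same medium with horse serum, insulin, EGF, cholera toxin and hydrocortisone. Cells were stained for the surface proteins CD24 and CD44 and sorted, and total RNA depleted of ribosomal RNA (rRNA) was sequenced from 3 libraries of a CD24low fraction (CSC in the submitters' column names) and 3 of a CD24high fraction (Bulk). The CD44 gate of either fraction is not given in the labels. All libraries come from 1 line, and no label says that replicates were separate cultures, so the spread between them may be technical. The cluster was selected on its difference in normalized counts between CD24low and CD24high libraries, already known from these data, so that difference is given as a description without a test. Position made the genes members. Their levels over all libraries, the order of detected and undetected genes within the window and the promoter sequences are measures that the choice did not rest on.

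Most genes of this cluster encode KRAB zinc finger proteins, transcription factors that read DNA with arrays of C2H2 zinc fingers and carry an amino-terminal KRAB domain. The KRAB domain binds TRIM28, which brings in the histone methyltransferase SETDB1 and HP1 proteins, and the bound locus is packed into heterochromatin. Many targets are retrotransposons: ZNF91 restrains SVA elements and ZNF93 restrains a family of LINE elements. The cluster grew by tandem duplication in primates, so its members are close paralogs, and few of them have a known target gene.

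Recovered reads ran from 16691162 to 27293177 per library, and genes of rRNA type took 1.30% to 10.2% of them. The high rRNA shares fell in CD24high replicate 3 and CD24low replicates 1 and 2. All 8 epithelial markers (EPCAM, CDH1, KRT5, KRT14, KRT18, KRT8, TP63 and ITGB4) averaged 10 or more normalized counts, with a summed level of 101117 to 125321 in CD24high and 73252 to 105508 in CD24low libraries, and all 8 had lower means on the log2 scale in CD24low libraries. Of 8 fibroblast markers, 5 had more than 3 reads in some library, LUM had no read, and 2 averaged 10 or more normalized counts. Both of these 2 had higher means on the log2 scale in CD24low libraries. The 8 together summed to 52.6 to 359 normalized counts in the CD24high and 887 to 3839 in CD24low libraries. The 4 endothelial markers summed to 87.1 to 396 and 105 to 342 normalized counts in these groups, and 1 averaged 10 or more.

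Fewer than 1 in 2 genes of the cluster were detected in these cells. Of the 37 genes, 15 averaged 10 or more normalized counts over the 6 libraries, the level required for the fit across all genes, and are called detected below. A further 18 had no read in any library, and 3 (ZNF14, ZNF43 and ZNF726) had at most 2 reads in all 6 libraries together. The limit that 0 reads set was 3 reads, or 2.49 to 4.38 normalized counts by library, and it covers counting error only. The remaining gene, ZNF90, had 60 reads in all, and in every library its count equalled that of AC011447.1, a transcribed processed pseudogene that shares 441 exon bases with it on the same strand. The count of ZNF90 therefore cannot be told from that of the pseudogene.

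Detected and undetected genes lay in stretches along the chromosome. ZNF101 (chromosome 19, 19668796 to 19683509, plus strand), at the edge nearest the short arm's end, was detected. The 9 genes that follow it, ZNF14, ZNF506, ZNF253, ZNF93, ZNF682, ZNF90, ZNF486, ZNF737 and ZNF626, were at or near 0 apart from ZNF90. Between ZNF101 and ZNF66 lie 1.09 Mb with 57 annotated genes of any type, of which 48 had no read. Only 1 of the 57, the processed pseudogene AC078899.1, averaged 10 or more normalized counts. Over all 58381 gene IDs, also of any type, 46.5% had no read and 27.5% averaged 10 or more normalized counts.

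The next 8 genes, ZNF66, ZNF85, ZNF430, ZNF714, ZNF431, ZNF708, ZNF738 and ZNF493, were all detected and span 0.651 Mb (20776304 to 21427573). ZNF429 had no read, ZNF100 (21722766 to 21767628, minus strand) was detected, and then came the longest stretch of undetected members. It held 11 members in a row: ZNF43, ZNF208, ZNF257, ZNF676, ZNF729, ZNF98, ZNF492, ZNF99, ZNF723, ZNF728 and ZNF730. Of these, 10 had no read and ZNF43 had 2 reads, both in CD24high replicate 3. The 1.45 Mb between ZNF100 and ZNF724 hold 70 annotated genes of any type, 64 of them (91.4%) with no read, against 46.5% of all gene IDs. Of the 70, 0 averaged 10 or more normalized counts, against 27.5% of all gene IDs. Beyond that stretch ZNF724, ZNF91, ZNF675 and ZNF681 were detected in a run of 0.537 Mb (23221599 to 23758891). ZNF726 had 2 reads, and ZNF254 (24033405 to 24129961, plus strand) was detected.

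**Figure D1:**
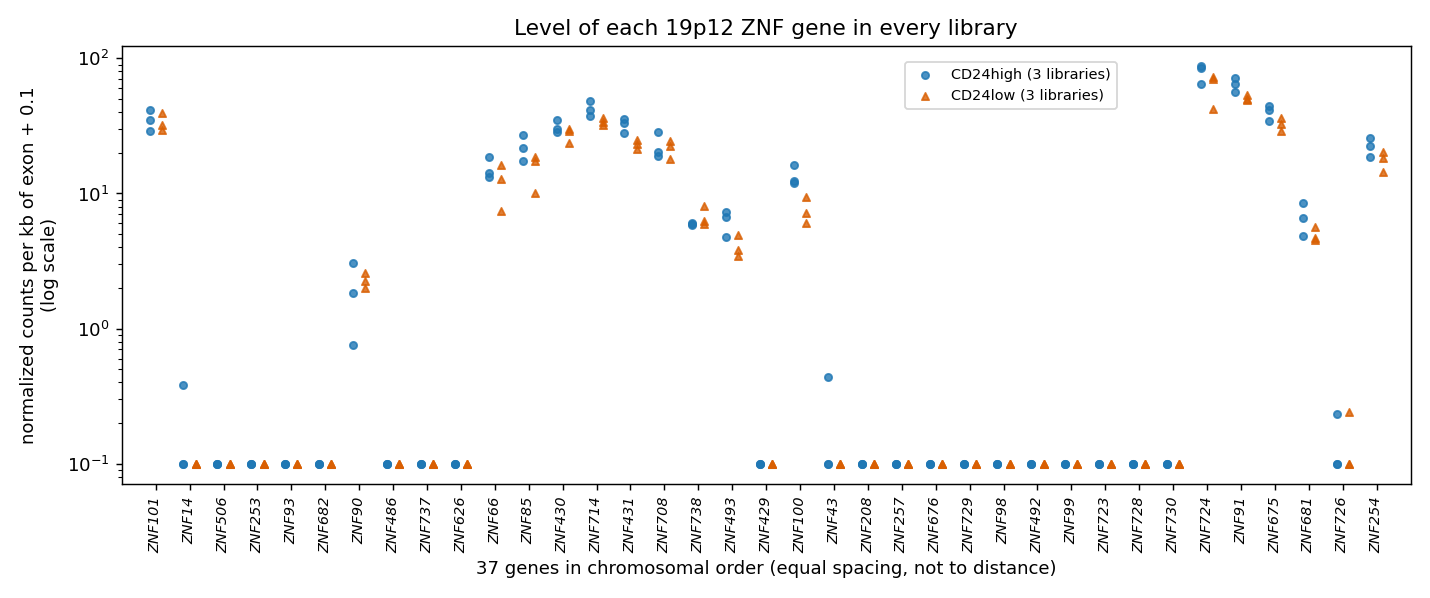
Normalized counts per kilobase of merged exons plus 0.1 (log axis) of the 37 genes in chromosomal order, with 1 point per library (circles CD24high, triangles CD24low). The 15 detected genes lie between 5.04 and 70.5 on average and form runs, and points at 0.1 are libraries with no read.

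Per kilobase of merged exons, the detected members averaged 5.04 (ZNF493) to 70.5 (ZNF724) normalized counts. ZNF91 followed ZNF724 with 57.6 per kilobase, then ZNF714 with 38.2, ZNF675 with 36.3 and ZNF101 with 34.4. The last 3 differ by less than the spread between their libraries. At the low end stood ZNF738 with 6.26, ZNF681 with 5.71 and ZNF493, which were likewise within each other's spread. ZNF724 shares 1487 exon bases with AC092329.3, a protein-coding model on the same strand, so part of its level is uncertain. The undetected members could not have reached these levels unnoticed: 3 reads in the shallowest library correspond to at most 2.39 normalized counts per kilobase, for the shortest of them. That limit holds for reads assigned to the gene, and reads of near-identical paralogs that the counting could not place are not covered by it.

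Genes without reads made up a larger share of the cluster than of the ZNF genes in the rest of the genome. No read was found for 48.6% of the 37 members, against 14.2% of the 212 ZNF genes elsewhere on chromosome 19, 9.02% of the 266 on other chromosomes and 19.9% of the 19881 protein-coding genes of the table. At most 3 reads in every library were found for 56.8% of the members and for 18.9%, 14.7% and 29.3% of those sets. The chromosome 19 windows ranged from 6.67% (starts from 40 to 50 Mb, 30 genes) to 26.5% (from the end of the cluster's window to 40 Mb, 34 genes). These shares describe the genes of 1 cell line, and no test was made over genes. Among detected genes the cluster was not set apart by level: the median was 22.1 normalized counts per kilobase over the 15 members and 28.1 over the 160 detected ZNF genes elsewhere on chromosome 19.

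**Figure D2:**
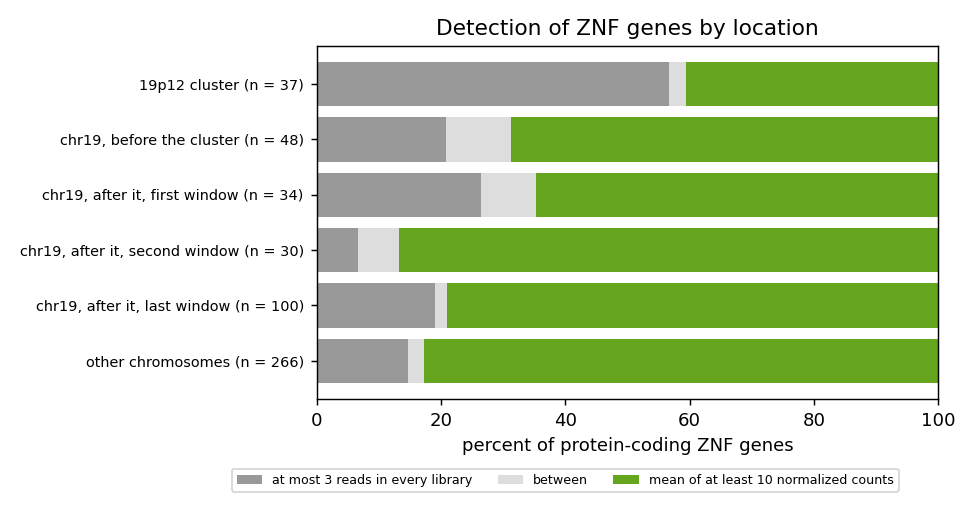
Percent of protein-coding ZNF genes with at most 3 reads in every library (dark), averaging 10 or more normalized counts (green) or between these (light), by location. The dark share is 56.8% in the cluster and 6.67% to 26.5% in the other chromosome 19 windows, which are 1 before the cluster and 3 after it, the latter divided at 40 and 50 Mb.

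Detected and undetected members shared promoter letters. RefSeq lists a promoter (250 bases before to 50 after the gene start, build GRCh38.p14) for 29 of the 37 members, 14 of them detected and 14 with at most 3 reads in every library. The letters CCAATCAG, a CCAAT box with its flank, of the kind bound by NF-Y, were searched for after the sequences had been seen. They stood in all 29 promoters in the sense direction, in 14 of 14 detected and in 14 of 14 undetected members. Searched on both strands, the same letters occurred in 15.4% of 188 promoters of ZNF genes elsewhere on chromosome 19 and in 3.97% of all 35116 promoters of the table. The copy nearest the start began 23 to 84 bases before it (median 56), and 7 detected and 7 undetected members had more than 1 copy. For 4 members (ZNF429, ZNF43, ZNF730 and ZNF254) the RefSeq start lay 8920 to 53782 bases from the GENCODE gene start, so the listed promoter and the counted gene model differ there.

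The following 4 promoters are shown as 2 pairs of a detected and an undetected member with similar sequence, with CCAATCAG in capitals: ZNF626, the last gene of the first undetected stretch (chr19:20661522-20661821, minus strand), ZNF66, the detected gene next to it (chr19:20776054-20776353, plus strand), ZNF208, in the long undetected stretch (chr19:22010894-22011193, minus strand), and ZNF91, the member with the most reads (chr19:23395422-23395721, minus strand).
ZNF626: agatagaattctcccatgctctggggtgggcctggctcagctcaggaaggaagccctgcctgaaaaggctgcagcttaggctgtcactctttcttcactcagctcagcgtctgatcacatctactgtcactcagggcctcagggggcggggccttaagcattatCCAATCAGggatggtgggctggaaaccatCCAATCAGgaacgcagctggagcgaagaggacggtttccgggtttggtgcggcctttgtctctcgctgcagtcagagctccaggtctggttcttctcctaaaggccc
ZNF66: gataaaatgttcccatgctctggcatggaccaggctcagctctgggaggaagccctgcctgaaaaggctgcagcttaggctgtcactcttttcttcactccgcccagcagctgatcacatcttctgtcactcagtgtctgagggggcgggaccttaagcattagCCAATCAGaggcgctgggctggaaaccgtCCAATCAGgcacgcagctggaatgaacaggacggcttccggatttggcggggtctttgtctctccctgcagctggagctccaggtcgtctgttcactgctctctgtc
ZNF208: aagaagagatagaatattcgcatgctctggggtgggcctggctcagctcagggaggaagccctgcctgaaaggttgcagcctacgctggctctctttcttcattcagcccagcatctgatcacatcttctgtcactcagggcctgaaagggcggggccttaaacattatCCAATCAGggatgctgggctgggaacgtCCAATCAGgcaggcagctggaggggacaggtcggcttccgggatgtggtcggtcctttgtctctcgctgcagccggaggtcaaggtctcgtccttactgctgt
ZNF91: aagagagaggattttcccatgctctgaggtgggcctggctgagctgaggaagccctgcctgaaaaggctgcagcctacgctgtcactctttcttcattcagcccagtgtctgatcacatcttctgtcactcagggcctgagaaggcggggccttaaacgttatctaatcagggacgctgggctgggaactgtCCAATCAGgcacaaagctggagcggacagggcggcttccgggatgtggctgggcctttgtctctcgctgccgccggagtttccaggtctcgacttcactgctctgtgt

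Aligned end to end, the promoters of ZNF626, with no read, and ZNF66, with 245 reads, were 82.8% identical, and those of ZNF208, with no read, and ZNF91, with 3644 reads, were 85.7% identical. Both pairs lie near the top of the range: over the 196 pairs of a detected and an undetected member, identity ran from 44.1% to 87.4% with a median of 75.2%. The median was 76.5% for pairs of detected and 72.8% for pairs of undetected members. ZNF14 (undetected) and ZNF101 (detected) were the least like the rest, at most 50.6% and 54.4% identical to any other member. ZNF429 (undetected) and ZNF708 (detected) had medians of 54.6% and 56.0%. In these promoters CCAATCAG began at bases -29 and -31 relative to the start, against a median of 56 bases before it over the 29 promoters. End-to-end identity therefore compares offset windows there, and the part of the offset in these low values was not tested. A second shared stretch, CTGTCACT, occurred in 12 of 14 detected and 13 of 14 undetected promoters. On either strand it occurred in 8.51% of the 188 promoters of ZNF genes elsewhere on chromosome 19 and in 1.91% of all promoters. CpG dinucleotides numbered 10 at the median in either set, with 9 to 18 in detected and 8 to 16 in undetected members. The median was 22 in ZNF promoters elsewhere on chromosome 19 and 14 over all promoters. A match of letters describes the sequence and does not show that a factor bound there.

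The number of zinc fingers did not separate detected from undetected members either. In the longest GENCODE coding sequence of each gene, counted as C2H2 units of the canonical spacing, the 15 detected members had a median of 12 fingers (0 to 31) and the 21 members at or near 0 a median of 13 (8 to 36). The longest arrays were those of ZNF208 with 36 and ZNF729 with 34, both with no read, and ZNF91 with 31, the member with the most reads. ZNF738, annotated with a coding sequence of 137 residues, had no canonical finger.

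Of the detected members, 14 of 15 had lower means in CD24low than in CD24high libraries on the scale of log2 (normalized count + 1), with a median difference of -0.33. Differences are CD24low minus CD24high, SE are those of the limma fit across all 16047 genes tested, and means are ± SD with n = 3 libraries per group. This is the contrast for which the cluster was chosen, so nothing is concluded from the direction. Set beside it, the median over the 160 detected ZNF genes elsewhere on chromosome 19 was -0.05, with 97 of 160 lower, and over all 16047 genes it was -0.01, with 51.0% lower. These counts leave out the 22 members below the filter. In RNA from pooled cells, a smaller number of expressing cells and less RNA per cell cannot be told apart.

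In 4 of the 15 detected members (ZNF714, ZNF431, ZNF100 and ZNF91) all CD24low libraries lay below all CD24high libraries, against 9.32% of all genes tested, and in 0 they all lay above, against 10.2%. Of the 160 detected ZNF genes elsewhere on chromosome 19, 26 had all CD24low libraries below and 7 had all of them above. The count of 4 became 10 without CD24high replicate 2 and 10 without CD24low replicate 3. With fewer libraries, the groups of any gene separate more easily. The share of all genes was not counted for these smaller sets, so nothing is concluded from the rise. With limma and Benjamini-Hochberg adjustment over all genes, 0 of the 15 members passed an adjusted p of 0.05, and 0% of all genes did. At an unadjusted p below 0.05 there were 4 members, all lower, against 7.15% of all genes that were lower and 6.34% that were higher. DESeq2 on the recovered reads called 0 members and 2.51% of all genes, and edgeR's quasi-likelihood test called 0 members and 0% of all genes. Limma with the replicate number as a block called 0 members and 4.46% of all genes. At an unadjusted p below 0.05, DESeq2 had 3 members, edgeR 4 and the block fit 6. Shares of all genes at that threshold were not counted for these fits, so nothing is concluded from these numbers.

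ZNF100 had the largest difference of the cluster. Its CD24high libraries held 106, 81.0 and 78.9 normalized counts (replicates 1, 2 and 3) and its CD24low libraries 46.7, 39.2 and 61.7, so the groups did not overlap. The means were 88.7 ± 15.2 and 49.2 ± 11.5, a 1.80-fold higher level in CD24high cells and a log2 difference of -0.85 (SE 0.24). It was -0.58 when only the libraries poor in rRNA were compared (CD24high replicates 1 and 2 with CD24low replicate 3) and -0.87 when only those rich in rRNA were (CD24high replicate 3 with CD24low replicates 1 and 2). ZNF100 stands alone between ZNF429 and ZNF43, which were at or near 0 in both fractions. Its exons overlap a pseudogene, AC092364.2, on the opposite strand, by 283 bases.

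ZNF431 and ZNF714, neighbours in the central run, also had groups that did not overlap. ZNF431 (21142024 to 21196053, plus strand) had 468, 393 and 499.7 normalized counts over CD24high and 326, 352 and 303 in CD24low libraries, with means of 454 ± 54.7 and 327 ± 24.4. Its log2 difference of -0.47 (SE 0.14) was nearly the same in the rRNA-poor and rRNA-rich libraries (-0.50 and -0.56). It shares 356 exon bases on the same strand with the pseudogene VN1R82P, so part of its count is uncertain. For ZNF714 (21082159 to 21125270, plus strand) the libraries held 331, 299 and 390 against 291, 258 and 271 normalized counts. All CD24low values were lower, though the highest of them lay close to the lowest CD24high value. The difference was -0.31 (SE 0.15), and -0.21 and -0.51 within low and high rRNA share.

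ZNF91, the repressor of SVA elements and the member with the most reads, had CD24low libraries that were closer together than its CD24high libraries. Its CD24high libraries held 738, 587 and 669 normalized counts and its CD24low libraries 524, 514 and 559. All CD24low libraries lay below the lowest CD24high library, replicate 2. Means were 665 ± 75.6 and 532 ± 23.9, a log2 difference of -0.31 (SE 0.13), with -0.23 and -0.37 within low and high rRNA share. With 1 library left out the difference ran from -0.40 to -0.24. ZNF93, the repressor of LINE elements, had no read in any library, so no difference could be measured for it.

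ZNF493, ZNF85 and ZNF66, all in the central run, had larger fitted differences than ZNF91 but overlapping groups. ZNF493 (21397119 to 21427573) had 73.9, 52.4 and 80.4 normalized counts over CD24high and 41.4, 37.3 and 53.9 in CD24low libraries. Only CD24low replicate 3 reached above a CD24high library, replicate 2, and the difference was -0.62 (SE 0.25). ZNF493 shares 196 exon bases on the same strand with the protein-coding model AC010615.4. ZNF85 (20923222 to 20950697) held 127, 81.0 and 101 against 80.2, 46.8 and 86.2, a difference of -0.55 (SE 0.27). Again CD24high replicate 2 was the low library of its group, and CD24low replicate 3 the high one of its own. ZNF66 (20776304 to 20807322) held 42.3, 39.5 and 55.5 against 37.9, 21.97 and 49.0, a difference of -0.38 (SE 0.32) that was 0.25 within low and -0.92 within high rRNA share. For ZNF493 and ZNF85 these values were -0.20 and -1.01, and -0.23 and -0.71.

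ZNF724, ZNF675 and ZNF681, which form a run with ZNF91 after the longest undetected stretch, and ZNF254 beyond it had overlapping groups. ZNF724 held 284, 214 and 292 normalized counts over CD24high and 241, 139 and 234 in CD24low libraries (-0.39, SE 0.23). CD24low replicate 2 was the lowest library by far. ZNF675, an inhibitor of TRAF6 signalling, had 303, 231 and 281 against 219, 197 and 247 (-0.29, SE 0.16), with CD24low replicate 3 above CD24high replicate 2. ZNF681 had 54.8, 30.6 and 42.4 against 30.0, 28.7 and 36.2 (-0.39, SE 0.28), and ZNF254, the last gene of the cluster, 194, 140 and 171 against 108, 139 and 154 (-0.33, SE 0.20). In both of these the overlap again came from CD24high replicate 2 and CD24low replicate 3. Within low rRNA share ZNF724, ZNF675, ZNF681 and ZNF254 differed by -0.075, -0.10, -0.17 and -0.10, and within high share by -0.67, -0.43, -0.52 and -0.47. ZNF254 shares 273 exon bases with the lincRNA AC092279.1 on the same strand.

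The remaining 4 detected members differed little between the fractions. ZNF430 had 240, 195 and 205 normalized counts over CD24high and 206, 161 and 198 in CD24low libraries (-0.18, SE 0.16). ZNF101, which lies apart from the other detected genes at the start of the cluster, had 270, 191 and 229 against 257, 194 and 212 (-0.05, SE 0.18), and its sign changed without CD24high replicate 1 (0.069) and without CD24low replicate 2 (0.036). ZNF708 had 123, 82.0 and 87.7 against 106, 77.4 and 97.0 (-0.05, SE 0.22), and its sign changed without CD24high replicate 1 (0.13), without CD24low replicate 2 (0.077) and in the rRNA-rich libraries (0.045). In all 3 genes the groups overlapped broadly. ZNF738, the gene without a canonical finger, was the exception in sign, with 22.4, 22.7 and 23.4 against 22.9, 23.9 and 31.3 (0.17, SE 0.27). Its higher CD24low mean came from replicate 3.

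**Figure D3:**
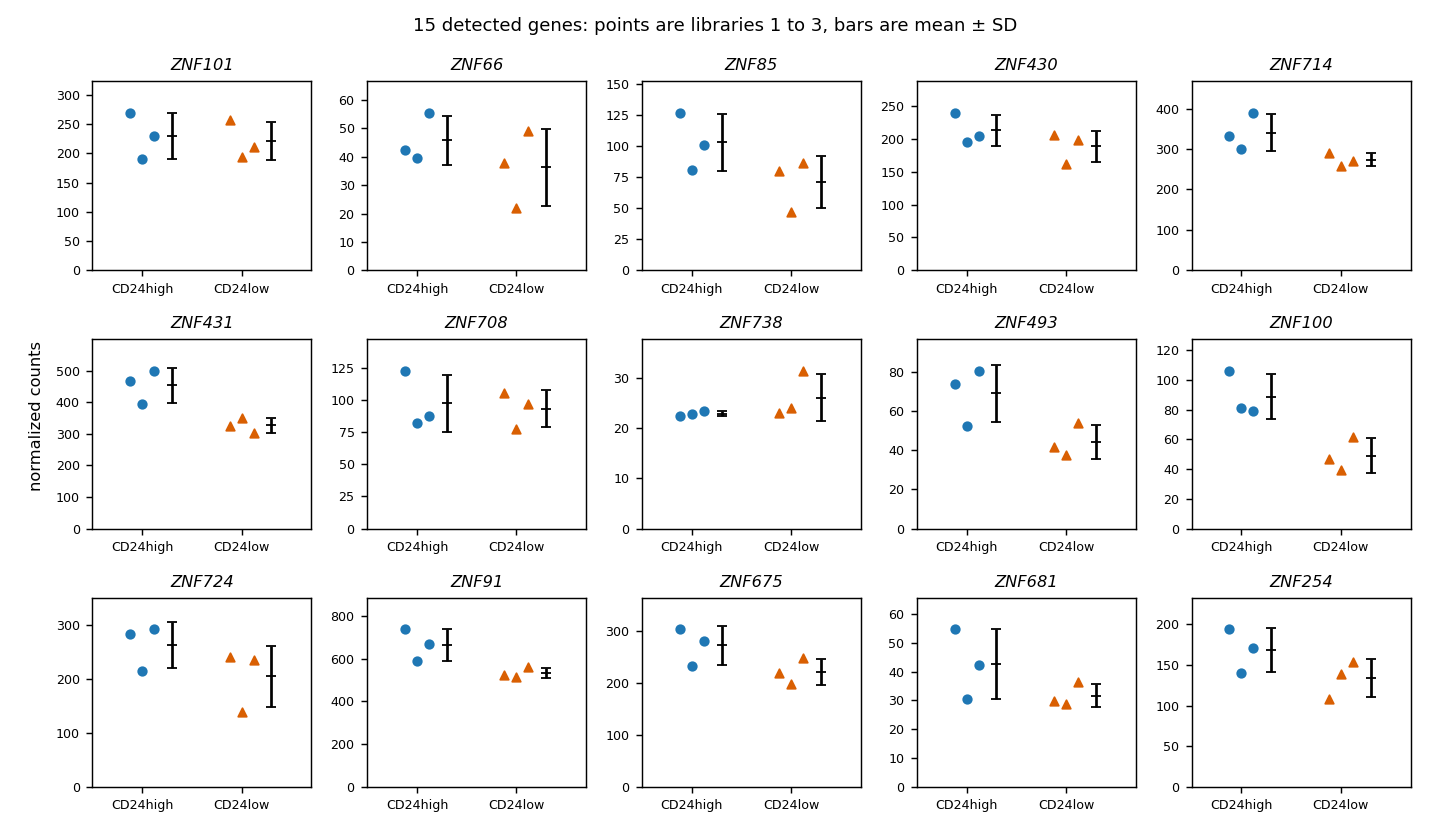
Normalized counts (linear axes from 0) of the 15 detected genes in each library, in replicate order from left to right within a group, with black bars for the group mean ± SD (n = 3). In ZNF714, ZNF431, ZNF100 and ZNF91 the CD24low libraries all lie below the CD24high libraries, and in the other 11 the groups overlap.

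**Figure D4:**
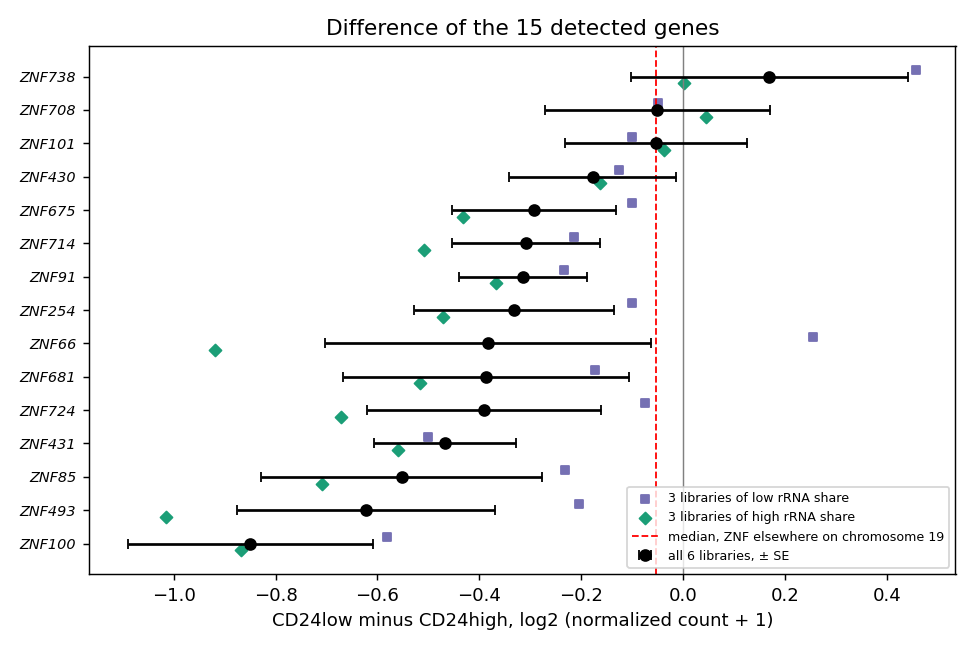
Difference of each detected gene, CD24low minus CD24high, on the log2 (normalized count + 1) scale, with the SE of the fit (black) and the values within rRNA-poor (squares) and rRNA-rich (diamonds) libraries, where 1 arm has a single library. The black points run from -0.85 (ZNF100) to 0.17 (ZNF738), and the dashed line marks the median of -0.05 over ZNF genes elsewhere on chromosome 19.

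The detected members deviated together from library to library, including within a fraction. After each gene was centred on its mean over the 6 libraries, the median over the 15 genes was 0.31, -0.05 and 0.22 for CD24high libraries 1 to 3. For CD24low libraries 1 to 3 it was -0.08, -0.30 and 0.0047. In CD24high replicate 1, 14 of 15 genes lay above their own mean, and in CD24low replicate 2, 0 did. CD24high replicate 2 lay on the side of the CD24low libraries, with 2 of 15 genes above their mean, and CD24low replicate 3 had 8. Medians of the 160 detected ZNF genes elsewhere on chromosome 19 ran from -0.04 to 0.07 over the same libraries. The spread between replicates of one fraction (0.31 against -0.05) was thus about as large as the median difference between the fractions (-0.33). That comparison ignores the replicate numbers. Replicate 2 had the lowest median in both fractions (-0.05 and -0.30), and the labels do not say whether libraries of equal number were prepared together. Because the mean was taken over both fractions, the medians of the members include the difference for which the cluster was chosen. Nothing is therefore concluded from their contrast with the other ZNF genes.

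**Figure D5:**
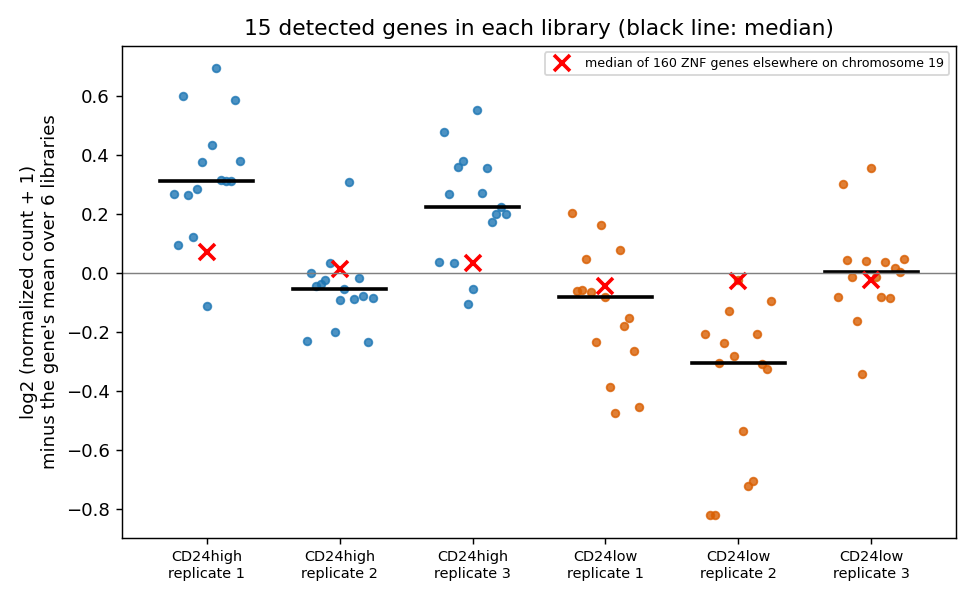
Deviation of each of the 15 detected genes from its own mean over the 6 libraries, on the log2 (normalized count + 1) scale, by library (blue CD24high, orange CD24low), with the median as a black line and the median of 160 ZNF genes elsewhere on chromosome 19 as a red cross. Medians run from -0.30 to 0.31 in the cluster and from -0.04 to 0.07 elsewhere, and CD24high replicate 2 has a negative median.

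The libraries of high and low rRNA share gave the same direction at different sizes. The median difference of the 15 members was -0.13 within low and -0.51 within high rRNA share, with 13 of 15 genes lower in each; over the 160 detected ZNF genes elsewhere on chromosome 19 it was -0.07 and -0.06. One arm of each of these contrasts is a single library (replicate 3 of CD24low or of CD24high), so they were not tested, and rRNA share cannot be told apart from these libraries. The summed level of the fibroblast markers also moved with the fractions, as given above, and its part in the difference was not tested.

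The partners of KRAB zinc finger proteins were detected in both fractions and showed no shared direction. All 32 listed genes of this silencing pathway were tested. With limma 0 passed the test over all genes (smallest adjusted p = 0.26), as did 0% of all genes. At an unadjusted p below 0.05 there were 3 of the 32, against 7.15% of all genes that were lower and 6.34% that were higher. DESeq2 called 0 of the 32 and 2.51% of all genes, and edgeR 0 of the 32 and 0% of all genes. The median difference of the 32 was 0.01, with 15 lower and 17 higher. TRIM28, the corepressor that binds the KRAB domain, had 10999 ± 1321 normalized counts over CD24high and 13252 ± 1129 in CD24low libraries (0.27, SE 0.13), with 0.43 in the rRNA-poor and 0.05 in the rRNA-rich libraries. SETDB1, the methyltransferase it recruits, had 541 ± 18.4 and 487 ± 39.9 (-0.15, SE 0.12). The widest differences of the list were those of DNMT3A, a de novo DNA methyltransferase (67.7 ± 18.3 and 111 ± 44.9, difference 0.66, SE 0.30), and HELLS, a chromatin remodeller needed for DNA methylation (2226 ± 257 and 1717 ± 339, difference -0.39, SE 0.16). In both the groups overlapped, and HELLS differed by -0.10 in the rRNA-poor and -0.54 in the rRNA-rich libraries. All CD24low libraries lay below all CD24high libraries in 3 of the 32 and above in 4, near the shares over all genes tested (9.32% and 10.2%).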

How the data were processed

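Each deposited value is a signal, never below 0: a gene's count that the authors divided by a size factor with DESeq2, per the submitters' processing notes, which also name STAR 2.5.2, R 3.5.0 and hg38. Which program counted reads, with which strand setting and annotation, is not given in the sources used here. Values in each library were whole multiples of 1 step (100% within 0.1 reads), so whole reads were recovered; 1 read was worth 0.83 to 1.46 normalized counts, and the shallowest library, CD24high replicate 3, is the least precise. IDs were matched to GENCODE 29 without version (58261 of 58381); of the members, 36 of 37 also matched with it. Libraries of a group differed beyond sampling noise, and each was counted as 1 replicate.

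Limma 3.58.1 with a mean-variance trend was fitted to log2 (normalized count + 1) of the 16047 genes averaging 10 or more normalized counts, with group as the only term, two-sided, and Benjamini-Hochberg adjustment; for low genes the pseudocount makes changes look smaller. DESeq2 1.42.0 and edgeR 4.0.16 were fitted to recovered reads of these genes. R 4.3.3, Python 3.11.15, pandas 2.3.3, numpy 2.4.6, biopython 1.88 and matplotlib 3.10.9 were used. The members and lists were chosen with earlier results of these data known. Named genes were 8 chosen members, the 5 highest per kilobase, up to 6 members with the most positive and 6 with the most negative difference, members with no read or with reads equal to another gene's, TRIM28, SETDB1 and the 2 partners with the largest difference; the other members were named after their values were seen. Levels per kilobase use merged exons of all GENCODE transcripts. Alternatives were other pseudocounts, filters, scalings and tools, a replicate block, rRNA share as a covariate or a split, members without exon overlap, and each library left out.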

Additional observations from a re-analysis of the deposited data

How the results depend on the processing

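The median difference of -0.33 over the detected members kept its sign under all alternatives run. It was -0.13 in the rRNA-poor libraries alone, and -0.46 to -0.24 with 1 library left out. The number of members with all CD24low libraries below all CD24high libraries was 11 of 15 in the rRNA-rich libraries alone, where fewer libraries are compared, and 4 to 10 with 1 library left out. The share of all genes was not counted for these smaller sets, so nothing is concluded from these numbers. With 1 library left out, 12 to 14 members were lower, and the median of ZNF genes elsewhere on chromosome 19 was -0.07 to -0.04. In each of these fits 0 members were called. Without CD24low replicate 3 the fit called 366 of the 16047 genes tested, a small share, so nothing is concluded from the 0. Among the 10 detected members whose exons overlap no other gene, 9 were lower, against 51.0% of all genes tested. In 2 of the 10 all CD24low libraries lay below all CD24high libraries, against 9.32% of all genes tested. Both counts are smaller than over the 15 since fewer genes were counted. The cluster was chosen for this contrast, so nothing is concluded from them. Of 277 values of the 15 detected members under the alternatives, 271 kept their sign. The 6 exceptions were 2 of ZNF101, 3 of ZNF708 and 1 of ZNF66 (0.25 in the rRNA-poor libraries), all given above. With the replicate block, limma called 0 of 15 members and 4.46% of all genes, with an unchanged median of -0.33. Deviations of libraries with the same number correlated at 0.27, 0.30 and 0.05, and CD24low replicate 3 did not correlate best with its own number, so the libraries were treated as sharing only a number. With no filter on low values 19 members were fitted, 16 of them lower, with a median of -0.31. The 18 members without a read give no difference.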

Other observations

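Of 16 other annotated genes of the same window that averaged 10 or more normalized counts, 12 were lower and 4 higher in CD24low libraries, with a median log2 difference of -0.23 and a range of -0.53 to 0.21. Some of them share exons with each other or with members and are not independent: NDUFA13 and AC011448.1, 2 of the 4 higher, have nearly equal counts. In 1, the pseudogene AC139769.1, all CD24low libraries lay below all CD24high libraries (30.7, 37.5 and 42.4 against 25.6, 26.7 and 28.4 normalized counts, -0.43, SE 0.25), and in 0 they all lay above. YJEFN3 differed by -0.48 (SE 0.38) and PBX4 by -0.44 (SE 0.39), with overlapping groups. RPSAP58, a processed pseudogene of a ribosomal protein gene that lies between ZNF681 and ZNF726, had 3425, 3774 and 3159 normalized counts in CD24high and 3833, 3612 and 4173 in CD24low libraries (0.17, SE 0.11), and reads of its parent gene cannot be told from its own where the sequences are identical. The protein-coding genes just before ZNF101 differed by -0.36 (LPAR2, SE 0.21), -0.03 (GMIP, SE 0.16) and -0.01 (ATP13A1, SE 0.17), and the groups overlapped in each. AC078899.1, the 1 gene averaging 10 or more normalized counts in the first undetected stretch, had 54.8, 64.2 and 42.4 against 61.7, 36.3 and 41.1. AC092329.3, which shares exons with ZNF724, had 198, 143 and 190 against 160, 95.5 and 167 normalized counts (-0.36, SE 0.24).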
